A study of Mus musculus with 44 samples.

Results

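The question examined here was whether the translatome of hippocampal neurons changed differently after early-life exercise (ELE) in the left and in the right hippocampus. It was asked of the 12 libraries, of 44 samples in the series and 20 in the NuTRAP count table, in which RNA was isolated separately from 1 hippocampus: 3 left ELE, 3 left sedentary, 3 right ELE and 3 right sedentary. All 12 came from male Emx1-NuTRAP mice, which carry Emx1-IRES-Cre and the NuTRAP reporter, so that ribosomes and nuclei of the Emx1 lineage bear tags. ELE mice could use a wheel between postnatal days 21 and 41, and sedentary mice were kept without one. The other hippocampus of each mouse was used for nuclei, so every library is 1 mouse, and a left and a right library never came from the same animal. Differences between sides are therefore also differences between mice.

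In TRAP-seq, tagged ribosomes are pulled down and the mRNA bound to them is sequenced, which reports the transcripts that a cell class is translating. The Emx1 lineage covers the excitatory neurons of the hippocampus together with some astrocytes and progenitors, and a pull-down also carries RNA of neighboring cells. Both hippocampi of the mouse are known not to be mirror images, in that CA1 synapses receiving input from left and from right CA3 neurons differ in spine size and NMDA receptor subunits, and voluntary running is known to act on dentate neurogenesis, growth factors and synaptic plasticity. All 10 excitatory neuron markers were detected, with Slc17a7, the vesicular glutamate transporter, averaging 3718 CPM, counts scaled to the library total, and Camk2a 4314 CPM, whereas Emx1 itself averaged 21.3 CPM.

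The deposited values were whole-number counts per gene, with 45895097 to 65767802 counts per library and a median of 55530705.5. After removal of genes with few counts, 18810 of 55335 genes were tested. For each gene the interaction was the left exercise change (log2 fold change, ELE over sedentary) minus the right exercise change, so a positive difference means that the exercise change was higher on the left. A gene was called at an unadjusted p under 0.05 in edgeR's quasi-likelihood test with an absolute difference above 0.39. By that rule 414 genes were called, 2.2% of those tested: 253 (1.35%) with the higher change on the left and 161 (0.856%) with the higher change on the right. No gene had an adjusted p under 0.05 (the lowest was 0.99996, Benjamini-Hochberg), and the unadjusted p was under 0.05 in 490 genes, where uniform p-values over 18810 genes would give about 940. The Wald test of DESeq2 gave 555 genes with an unadjusted p under 0.05 and 2 with an adjusted p under 0.05, Lars2 (adjusted p = 0.000712) and Gm23935 (adjusted p = 0.0272). The genes described here are thus those with the smallest unadjusted p-values, and this edgeR fit gives none of them an adjusted p under 0.05.

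Some libraries stood apart before any test. Over all tested genes, the deviations from the group mean of left ELE mouse TG9.1.4 and right sedentary mouse TG9.1.1 correlated at 0.38, the highest of 54 pairs of libraries from different groups, of which the next reached 0.19. Markers of the choroid plexus, the epithelium that lines the ventricles beside the hippocampus and makes cerebrospinal fluid, summed to over 1000 CPM in 4 libraries (left sedentary TG9.1.2 and TG7.3.4, left ELE TG7.3.2 and right sedentary TG9.2.3) and to 23.3 to 102 CPM in the other 8. Fits without each of these sets were added after the data were seen, and the calls that end without them are given beside the gene or with the choroid plexus levels. In the edgeR fit without TG9.1.4 and TG9.1.1, 1034 of about 19390 genes had an unadjusted p under 0.05, beside 490 of 18810 with all libraries. The lowest adjusted p of that fit was 0.308.

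Of the 414 called genes, 299 were protein-coding and 251 averaged 1 CPM or more over the 12 libraries, 1.78% of the 14138 genes at that level. A call needs a large difference between the sides, which favors exercise changes of opposite sign, and these are counted as a description: 235 of the 253 genes higher on the left had a positive exercise change on the left and a negative one on the right, and 152 of the 161 genes higher on the right had the reverse, while 44.7% of all 18810 genes had opposite signs. In 37 called genes the ELE and sedentary mice did not overlap on either side and moved in opposite directions, a property shared by 52 of all 18810 genes (0.276%). In 122 called genes the groups overlapped on both sides. Across the 14138 genes with at least 1 CPM the left and right exercise changes, which come from different mice, had a Pearson correlation of 0.072 and a Spearman correlation of 0.15, given as a description since genes are not independent. Arntl, the core clock activator BMAL1, had similar fitted values on both sides: its exercise change was 0.48 ± 0.085 (SE) on the left and 0.52 ± 0.085 on the right, a difference of -0.041 ± 0.12.

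**Figure D1:**
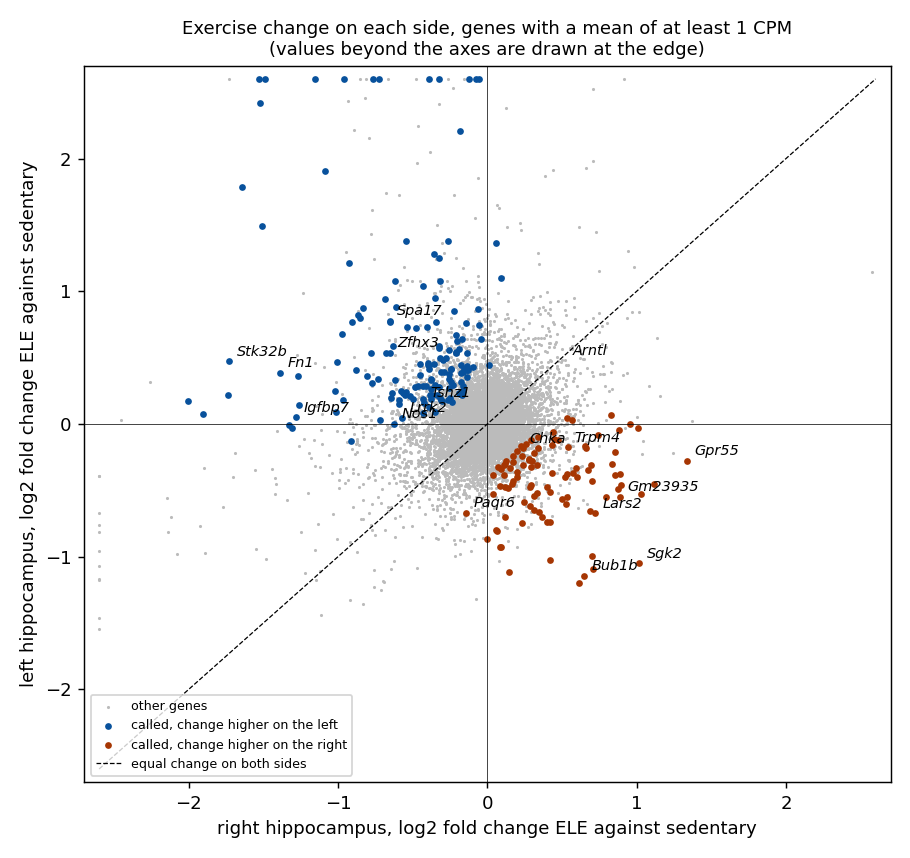
Exercise change in the right hippocampus (horizontal axis) against the left (vertical axis), both as log2 fold change of ELE over sedentary, for 14138 genes that averaged 1 CPM or more. Called genes (blue, change higher on the left; brown, change higher on the right) lie away from the dashed line of equal change, mostly in the quadrants of opposite sign, and Arntl lies near the line.

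Among the 12 genes with the smallest p-values that were higher on the left, several were low in the right ELE mice and similar elsewhere. Nos1, the neuronal nitric oxide synthase (GRCm38 chr5:117781032-117958840, plus strand), was at 110.0, 109 and 102 CPM in left sedentary, 118, 87.8 and 116 in left ELE, 110.5, 99.9 and 107 in right sedentary and 68.8, 67.9 and 69.3 in right ELE mice. The right ELE mice lay below all 9 others, and the left ELE and left sedentary ranges overlapped. Its exercise change was 0.0030 ± 0.10 (SE) on the left and -0.62 ± 0.10 on the right, a difference of 0.63 ± 0.14 (SE). Tshz1, a zinc-finger transcription factor of the teashirt family, was at 31.1, 37 and 32.1 CPM in left sedentary, 41.7, 34.7 and 35.7 in left ELE, 37.6, 34.3 and 32.9 in right sedentary and 25.9, 24.4 and 27.6 in right ELE mice. The same group was lowest, with the left groups overlapping, and the difference was 0.59 ± 0.15 (SE). Lrrk2, a large kinase in which mutations cause familial Parkinson's disease, was at 17.5, 18.3 and 15.6 CPM in left sedentary, 16.9, 17.1 and 19.2 in left ELE, 18.3, 17 and 16 in right sedentary and 9.94, 11.3 and 13.2 in right ELE mice. Its right ELE mice again lay below the rest, for a difference of 0.62 ± 0.18 (SE).

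Igfbp7, a secreted binding protein for insulin-like growth factors that is also found in vessel walls, was at 3.26, 3.63 and 3.67 CPM in left sedentary, 4.04, 2.63 and 4.27 in left ELE, 3.82, 4.39 and 4.36 in right sedentary and 1.88, 1.73 and 1.55 in right ELE mice. All right ELE mice were below every other mouse, and the difference was 1.33 ± 0.30 (SE), with an exercise change of 0.051 on the left and -1.280 on the right. Stk32b, a serine/threonine kinase, was at 2.08, 3.25 and 3.83 CPM in left sedentary, 5.86, 1.6 and 5.28 in left ELE, 4.22, 4.19 and 2.84 in right sedentary and 0.786, 0.947 and 1.68 in right ELE mice. Its left ELE mice spread from 1.6 to 5.86 CPM and overlapped both sedentary groups, and the difference was 2.20 ± 0.61 (SE). Fhad1, a protein with a forkhead-associated domain, was at 8.02, 7.53 and 6.21 CPM in left sedentary, 9.61, 8.64 and 7.27 in left ELE, 8.85, 7.93 and 8.43 in right sedentary and 4.67, 6.595 and 5.79 in right ELE mice. Right ELE mice were below right sedentary mice and overlapped 1 left sedentary mouse, and the difference was 0.80 ± 0.24 (SE). The calls of Nos1, Tshz1, Lrrk2, Igfbp7, Stk32b and Fhad1 held in each of the 12 fits that left out 1 library, with Nos1 between 0.55 and 0.75 and Igfbp7 between 1.20 and 1.51. Among called genes with at least 1 CPM, the 3 right ELE mice were the lowest of the 12 in 11 genes, the left sedentary mice in 6, and the left ELE and the right sedentary mice in 5 each. Among all 14138 genes at that level these counts were 65, 58, 28 and 18.

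**Figure D2:**
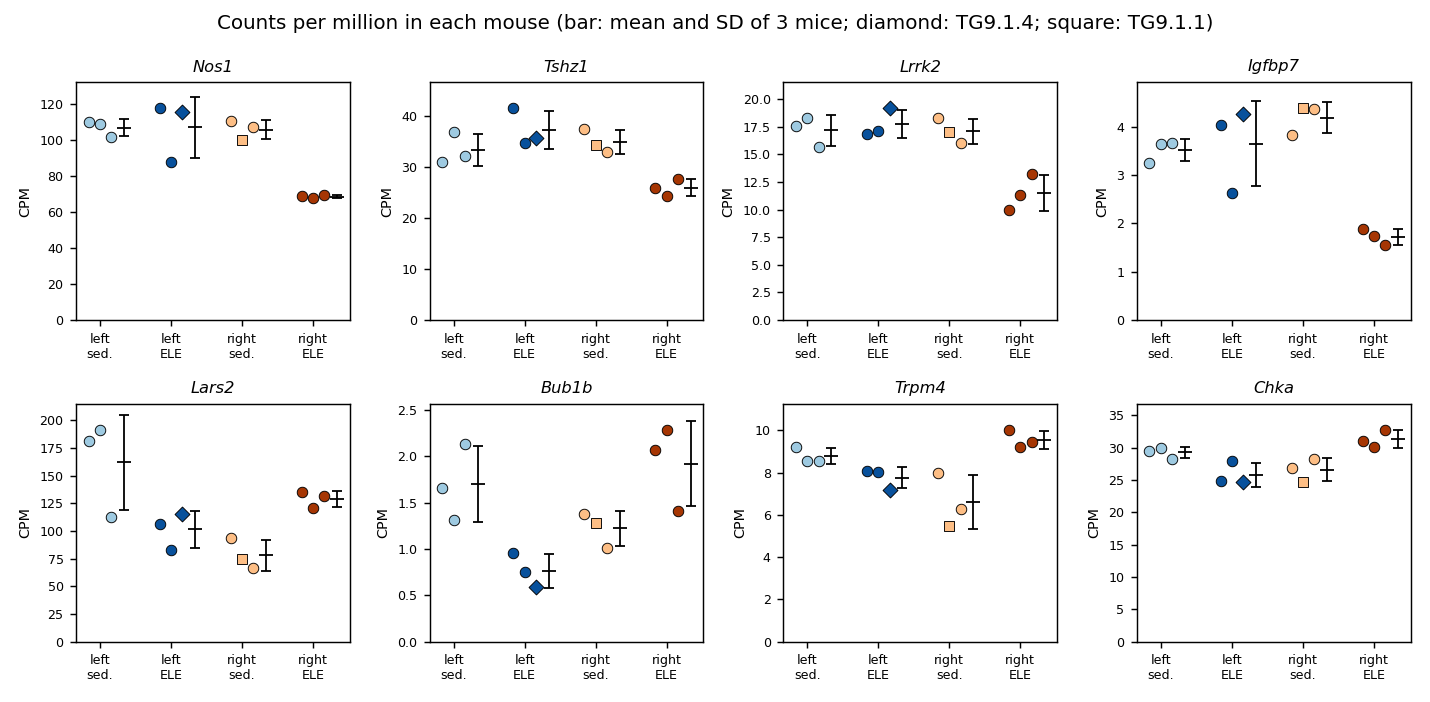
CPM of 8 called genes in each mouse, with the mean and SD of the 3 mice of each group as a bar, and each axis starting at 0. In the upper row the right ELE mice are the lowest of the 12, and in the lower row the ELE mean is below the sedentary mean on the left and above it on the right.

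In a smaller set the ELE mice were higher on the left and lower on the right. Spa17, a protein of sperm and motile cilia, was at 1.75, 1.89 and 1.96 CPM in left sedentary, 3.61, 3.37 and 2.62 in left ELE, 1.85, 1.67 and 3.43 in right sedentary and 1.51, 1.34 and 1.55 in right ELE mice. ELE and sedentary mice did not overlap on either side, and the difference was 1.43 ± 0.40 (SE). Zfhx3, a homeodomain zinc-finger factor that acts in circadian timing, was at 1.47, 1.59 and 1.29 CPM in left sedentary, 2.36, 2.13 and 1.84 in left ELE, 2.52, 1.91 and 2.2 in right sedentary and 1.39, 1.79 and 1.05 in right ELE mice. The groups were again separate on both sides, in opposite directions, for a difference of 1.19 ± 0.37 (SE). Col12a1, a fibril-associated collagen, was at 1.66, 1.1 and 1.14 CPM in left sedentary, 1.866, 2.09 and 1.69 in left ELE, 1.56, 2.603 and 1.54 in right sedentary and 1.11, 1.36 and 0.848 in right ELE mice. It showed the same separation with a difference of 1.31 ± 0.44 (SE). All 3 genes are low, and their calls held without each library in turn, Spa17 between 1.03 and 1.62 and Zfhx3 between 1.01 and 1.39.

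The genes higher on the right were led by Lars2, the mitochondrial leucyl-tRNA synthetase (GRCm38 chr9:123366927-123462666, plus strand). Lars2 was at 181, 191 and 113 CPM in left sedentary, 106, 83.2 and 115 in left ELE, 93.7, 74.5 and 66.5 in right sedentary and 135, 121 and 132 in right ELE mice. Right ELE mice lay above right sedentary mice without overlap, whereas the left ranges overlapped through 1 sedentary mouse, TG9.2.4. The exercise change was -0.67 ± 0.18 (SE) on the left and 0.72 ± 0.18 on the right, for a difference of -1.40 ± 0.26 (SE), and DESeq2 gave -1.39 with an adjusted p of 0.000712. The other 35 aminoacyl-tRNA synthetases tested had no call, with differences between -0.31 and 0.55 and a median over all 36 of 0.057.

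Some loci of the ribosomal RNA-like list were called in the direction of Lars2. Of 6 loci tested in that list, 4 had a negative difference and 3 were called, all with the higher change on the right: Gm23935 with -1.44 ± 0.32 (SE), CT010467.1 with -1.26 ± 0.40 (SE) and Gm42418 with -1.14 ± 0.39 (SE), against a background of 0.856% of genes called in that direction. The other 3, which averaged under 2 CPM, were not called and had differences of -0.81 ± 1.01 for Gm15564, 0.32 ± 0.78 for Gm26917 and 0.67 ± 2.39 for Rn7sk. Rn7sk is the 7SK small nuclear RNA, not ribosomal RNA, but it counts in this list and its median. Gm23935 is annotated as a miRNA. Without the 4 libraries rich in choroid plexus markers the differences of the called loci were -0.77, -0.68 and -0.57, and the Gm42418 call was lost. The list's median was -0.97, beside 0.012 over all genes. Gm42418 was at 1063, 1128 and 501 CPM in left sedentary, 1019.7, 466 and 700.5 in left ELE, 506, 601 and 527 in right sedentary and 865, 1034 and 1015 in right ELE mice. The 3 right ELE mice were above all right sedentary mice, and on the left the mice of both groups overlapped. These loci are uncertain, because rRNA is encoded in many near-identical copies that counting by gene cannot separate, and Gm42418 and CT010467.1 overlap on opposite strands of chromosome 17. The share of all counts in ribosomal RNA-like loci was 0.224, 0.242 and 0.113 percent in left sedentary, 0.215, 0.101 and 0.151 in left ELE, 0.112, 0.13 and 0.112 in right sedentary and 0.186, 0.213 and 0.211 in right ELE mice. Its left minus right exercise change was -0.123 percentage points (two-sided exact permutation test over 400 arrangements, p = 0.070, adjusted p = 0.765 over 17 values). That share, which also takes in all other genes annotated as rRNA or mitochondrial rRNA, moved with Lars2 in the same mice. Its part in the Lars2 value was not tested.

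Among the other genes higher on the right, Bub1b, a kinase of the mitotic spindle checkpoint, was at 1.66, 1.31 and 2.13 CPM in left sedentary, 0.956, 0.755 and 0.588 in left ELE, 1.38, 1.281 and 1.01 in right sedentary and 2.06, 2.29 and 1.41 in right ELE mice. The ELE mice were lower on the left and higher on the right with no overlap on either side, for a difference of -1.79 ± 0.45 (SE). Trpm4, a cation channel opened by intracellular calcium, was at 9.2, 8.56 and 8.54 CPM in left sedentary, 8.07, 8.03 and 7.19 in left ELE, 7.99, 5.49 and 6.27 in right sedentary and 10.0, 9.2 and 9.44 in right ELE mice. The same separation held, with a difference of -0.71 ± 0.21 (SE). Chka, the choline kinase that starts phosphatidylcholine synthesis, was at 29.5, 30.0 and 28.3 CPM in left sedentary, 24.8, 27.9 and 24.7 in left ELE, 26.9, 24.7 and 28.3 in right sedentary and 31.1, 30.2 and 32.8 in right ELE mice. Its groups were separate on both sides and its difference was -0.42 ± 0.13 (SE). Leaving out right sedentary mouse TG9.1.1, the Chka difference was -0.37, inside the fold limit, and the call was lost, as it was without both TG9.1.4 and TG9.1.1 (-0.34).

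Sgk2, a kinase related to the glucocorticoid-induced SGK1, was at 1.56, 0.821 and 1.45 CPM in left sedentary, 0.833, 0.404 and 0.607 in left ELE, 1.14, 0.529 and 0.727 in right sedentary and 1.42, 1.38 and 2.08 in right ELE mice. Right ELE mice were above right sedentary mice and the left ranges overlapped through 1 mouse each, for a difference of -2.07 ± 0.58 (SE). Gpr55, a receptor for lysophosphatidylinositol, differed by -1.62 ± 0.54 (SE) and Ucp3, a mitochondrial uncoupling protein, by -1.24 ± 0.43 (SE). Fcgrt, the neonatal Fc receptor, differed by -0.76 ± 0.26 (SE), Zfp58, a zinc-finger protein, by -1.13 ± 0.38 (SE) and Rnf215, a RING finger protein, by -0.41 ± 0.14 (SE). ELE and sedentary mice were separate on both sides in Fcgrt, Zfp58, Rnf215 and Ucp3, and on the right alone in Gpr55. The Rnf215 call was lost without left sedentary TG9.2.4, right ELE TG9.1.3 or right sedentary TG9.2.3, with values between -0.50 and -0.35 over the 12 fits. Without both TG9.1.4 and TG9.1.1, Trpm4 differed by -0.54, Fcgrt by -0.44 and Ucp3 by -0.75, all still called.

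For Paqr6 and Tmem114 the ELE and sedentary mice were separate on the left only. Paqr6, a membrane progestin receptor, was at 22.2, 20.6 and 20.7 CPM in left sedentary, 12.6, 14.7 and 12.7 in left ELE, 15.6, 16.8 and 20.1 in right sedentary and 15.3, 16 and 16.2 in right ELE mice. All left ELE mice were below every other mouse, the right groups overlapped, and the difference was -0.53 ± 0.17 (SE). Tmem114, a transmembrane protein of the claudin-like family, was at 10.3, 10.8 and 12.3 CPM in left sedentary, 7.0, 6.25 and 4.31 in left ELE, 6.37, 4.62 and 8.23 in right sedentary and 8.44, 5.02 and 7.02 in right ELE mice. Left ELE and left sedentary mice were separate and right groups overlapped, for a difference of -1.02 ± 0.35 (SE), or -0.65 without TG9.1.4 and TG9.1.1. Without the 4 libraries rich in choroid plexus markers, 2 of them left sedentary, Tmem114 differed by -1.31 and was called, and Paqr6 by -0.38 and was not.

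The promoters of called genes were searched for motifs used by activity-regulated and clock transcription factors, in the RefSeq window from 250 bases before to 50 bases after the transcription start (GRCm38.p6). A window was given for 253 of the 414 called genes and 12840 of the tested ones. The CRE half-site bound by CREB (TGACG, either strand) was in 28.6% and 29.4%, beside 32.7% of all tested genes, for the genes higher on the left and on the right. The AP-1 site (TGANTCA) was in 10.1% and 5.88%, beside 6.26%, the E-box (CACGTG) in 9.52% and 11.8%, beside 11%, the GC box (GGGCGG) in 57.7% and 57.6%, beside 64.4%, and the TATA box (TATAAA) in 9.52% and 7.06%, beside 9.37%. The GC box and the CRE half-site were less frequent among called genes in both directions. AP-1 was more frequent among genes higher on the left, in 17 of 168 windows, and not among those higher on the right. All these shares are descriptions without a test. The windows of 5 genes that stand for both directions are shown 5′ to 3′, Nos1, Lrrk2 and Igfbp7 for the left and Chka and Bub1b for the right, with the CRE half-site in capitals as it reads on this strand (TGACG or CGTCA). None of the 5 holds an AP-1 site or an E-box of these letters, and Igfbp7 holds no CRE half-site either. The Nos1 window surrounds the RefSeq start, which lies inside the longer GENCODE span given for the gene and is not its most upstream start.
Nos1, chr5:117866589-117866888, plus strand: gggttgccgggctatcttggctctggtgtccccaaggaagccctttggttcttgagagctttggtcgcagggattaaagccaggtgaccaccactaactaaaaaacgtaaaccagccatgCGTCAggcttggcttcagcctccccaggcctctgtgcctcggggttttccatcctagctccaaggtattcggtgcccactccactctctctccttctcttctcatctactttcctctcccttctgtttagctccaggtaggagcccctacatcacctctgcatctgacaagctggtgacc
Lrrk2, chr15:91672974-91673273, plus strand: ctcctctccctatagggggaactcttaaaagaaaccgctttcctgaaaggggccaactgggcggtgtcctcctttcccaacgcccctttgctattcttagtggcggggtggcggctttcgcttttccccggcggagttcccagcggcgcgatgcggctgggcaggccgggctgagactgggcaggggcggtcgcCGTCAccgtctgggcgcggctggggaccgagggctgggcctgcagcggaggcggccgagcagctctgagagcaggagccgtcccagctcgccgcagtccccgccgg
Igfbp7, chr5:77407996-77408295, minus strand: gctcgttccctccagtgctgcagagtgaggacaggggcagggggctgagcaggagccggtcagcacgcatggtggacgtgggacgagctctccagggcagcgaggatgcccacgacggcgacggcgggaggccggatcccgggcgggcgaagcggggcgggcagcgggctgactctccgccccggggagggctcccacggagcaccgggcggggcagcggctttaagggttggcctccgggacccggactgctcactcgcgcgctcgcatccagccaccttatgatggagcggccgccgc
Chka, chr19:3851523-3851822, plus strand: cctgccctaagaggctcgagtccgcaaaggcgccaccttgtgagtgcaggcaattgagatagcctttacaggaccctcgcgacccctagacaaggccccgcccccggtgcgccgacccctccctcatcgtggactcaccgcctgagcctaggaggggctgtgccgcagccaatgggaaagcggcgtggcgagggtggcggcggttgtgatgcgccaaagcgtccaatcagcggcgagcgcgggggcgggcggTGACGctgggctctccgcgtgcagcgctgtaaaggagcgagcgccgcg
Bub1b, chr2:118597961-118598260, plus strand: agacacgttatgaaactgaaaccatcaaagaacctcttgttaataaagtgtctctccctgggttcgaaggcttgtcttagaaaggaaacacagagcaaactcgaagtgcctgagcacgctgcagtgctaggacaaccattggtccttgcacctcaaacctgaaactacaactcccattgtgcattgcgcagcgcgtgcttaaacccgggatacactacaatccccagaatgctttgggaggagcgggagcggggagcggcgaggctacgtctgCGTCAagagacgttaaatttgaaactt

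Function lists of neuronal signaling gave few calls. In nitric oxide and cGMP signaling, Nos1 was the 1 called gene of 17 tested, beside 2.2% of all genes called. The subunits of soluble guanylate cyclase, the nitric oxide receptor, gave 0.080 ± 0.48 for Gucy1a1 and -0.067 ± 0.16 for Gucy1b1, the Nos1 adaptor Nos1ap gave -0.034 ± 0.18, and the list's median was 0.049. Among 25 glutamate receptor subunits, Grin3a, an NMDA receptor subunit that limits calcium entry, was the 1 call. Grin3a was at 31.4, 38.5 and 37.1 CPM in left sedentary, 48.9, 36.9 and 31.3 in left ELE, 42.4, 48.8 and 35.8 in right sedentary and 33.4, 33.9 and 29.7 in right ELE mice. Right ELE mice were below right sedentary mice and the left groups overlapped, for a difference of 0.52 ± 0.22 (SE). That call was lost without any one of left ELE TG7.3.2, left sedentary TG9.1.2, right ELE TG7.3.1 and right sedentary TG9.2.3 and TG9.1.1, the 12 fits giving values between 0.33 and 0.65. Grin1 gave -0.14 ± 0.13, Grin2a -0.13 ± 0.16 and Grin2b 0.061 ± 0.18.

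Unc13c (Munc13-3), a vesicle priming factor, was the 1 call of 34 genes of the release machinery, beside 2.2% of all genes called. It was at 1.38, 2.18 and 4.22 CPM in left sedentary, 6.4, 4.27 and 3.61 in left ELE, 4.67, 2.77 and 5.57 in right sedentary and 1.65, 3.38 and 2.28 in right ELE mice. Groups overlapped on both sides, and the difference was 1.71 ± 0.57 (SE), whereas its paralogs gave 0.017 ± 0.19 for Unc13a and 0.16 ± 0.26 for Unc13b. Of 13 GABA-A receptor subunits, Gabre was called with 4.18 ± 1.66, at 0, 0.297 and 0.192 CPM in left sedentary, 0.386, 0.422 and 0.228 in left ELE, 0.272, 0.142 and 0.264 in right sedentary and 0, 0.0536 and 0.0202 in right ELE mice. Those levels rest on 0 to 25 counts per library, and the call was lost without any one of left ELE TG9.2.2, right ELE TG9.1.3 and TG7.3.1 and right sedentary TG9.2.3. Potassium and HCN channels (31 tested, median -0.028), calcium pumps and exchangers (13, median -0.12) and ephrins with their receptors (20, median 0.079) held no call. The members with the smallest p in these lists were Kcnn1 at -0.28 ± 0.12, Atp2a2 at -0.21 ± 0.10 and Efna1 at 0.81 ± 0.45.

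Immediate early and activity-regulated genes, the fast transcriptional response to neuronal firing, held no call in 30, with 14 positive and 16 negative differences and a median of -0.015. The median exercise change of these 30 genes was 0.22 on the left and 0.30 on the right. In the fit with no filter on low counts, which called 3.54% of the genes tested, 5 of the list passed, Nr4a1 among them. Nr4a1, an orphan nuclear receptor induced by activity, had the smallest p and was at 44.4, 46.4 and 48.7 CPM in left sedentary, 44.6, 55.1 and 42.9 in left ELE, 48, 36.8 and 52.3 in right sedentary and 83.9, 53.8 and 55.7 in right ELE mice. Its right ELE mice were above right sedentary mice, its left groups overlapped, and the difference was -0.47 ± 0.24 (SE). Egr1 gave -0.42 ± 0.27 and Nr4a3 -0.37 ± 0.23. Bdnf, the activity-induced neurotrophin, was at 71, 69.6 and 64.7 CPM in left sedentary, 63.3, 78.5 and 116 in left ELE, 57.2, 101 and 76.2 in right sedentary and 77.8, 88.5 and 78.7 in right ELE mice. Left ELE mouse TG9.1.4 and right sedentary mouse TG9.1.1 were the highest of the 12, ELE and sedentary mice overlapped on each side, and the difference of 0.26 ± 0.29 (SE) was -0.014 without TG9.1.4, -0.24 without both and 0.70 without the 4 libraries rich in choroid plexus markers, a value past the call thresholds. The 19 core clock genes held no call either (median -0.017). Bhlhe40, a repressor in the clock loop, had the smallest p among them, with a difference of 0.26 ± 0.10 (SE) that has an unadjusted p under 0.05 but lies inside the fold limit.

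Several further calls rested on left ELE TG9.1.4 and right sedentary TG9.1.1, since a high value in left ELE and a high value in right sedentary add up in the interaction. Npy, the neuropeptide Y of interneurons that is also induced in granule cells by strong activity, was at 3.03, 2.29 and 2.08 CPM in left sedentary, 0.771, 3.28 and 300.2 in left ELE, 1.34, 79 and 1.17 in right sedentary and 5.89, 16.2 and 6.18 in right ELE mice. TG9.1.4 and TG9.1.1 were the highest of the 12 mice, and the other 10 were between 0.771 and 16.2 CPM. The difference was 6.89 ± 2.49 (SE) with all 12 libraries, 1.23 without TG9.1.4, not called, and -3.20 without both, called in the opposite direction. Hspb1, the small heat shock protein HSP27, was at 0.782, 0.594 and 0.122 CPM in left sedentary, 1.866, 0.615 and 69.2 in left ELE, 0.815, 58 and 0.771 in right sedentary and 0, 21 and 0.222 in right ELE mice. Its difference of 7.07 ± 2.98 (SE) was -1.83 without both (not called) and 13.19 without right ELE TG9.2.1. Hspb1 was the 1 call among 32 heat shock proteins and chaperones (median 0.050), beside 2.2% of all genes called. Krt75, a keratin, was at 0.0558, 0.227 and 0.070 CPM in left sedentary, 0.447, 0.228 and 26.9 in left ELE, 0.163, 2.74 and 0.11 in right sedentary and 0.308, 0.679 and 0.848 in right ELE mice. Its difference was 6.97 ± 2.24 (SE) with all libraries, 2.22 without TG9.1.4 and -0.63 without both, with no call in the last 2 fits.

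The 3 called genes of 15 neurotrophins and receptors, all higher on the left, beside 1.35% of all genes, belonged to this set. Gfra1, the co-receptor of GDNF, was at 44.5, 51.1 and 57.9 CPM in left sedentary, 59, 47.9 and 108 in left ELE, 53.8, 72.6 and 49.9 in right sedentary and 47, 46.4 and 50.2 in right ELE mice, and Ret, its signaling receptor, was at 2.23, 2.48 and 2.68 CPM in left sedentary, 2.62, 2.34 and 10.7 in left ELE, 2.93, 6.1 and 2.33 in right sedentary and 1.96, 2.91 and 2.52 in right ELE mice. In both genes TG9.1.4 was highest and TG9.1.1 second, and the other 10 mice overlapped. The difference was 0.78 ± 0.33 (SE) for Gfra1 and 1.70 ± 0.72 (SE) for Ret, and 0.18 and 0.11 without both mice, neither called. Ntf5, which encodes neurotrophin-4, was at 0.745, 0.21 and 0.14 CPM in left sedentary, 1.16, 0.79 and 3.02 in left ELE, 0.905, 0.793 and 0.528 in right sedentary and 1.06, 0.214 and 0.626 in right ELE mice, with TG9.1.4 alone apart, and its difference of 2.40 ± 0.999 (SE) was 1.59 without both and not called. TrkB and TrkC, the receptors of BDNF and neurotrophin-3, gave -0.0091 ± 0.12 for Ntrk2 and 0.13 ± 0.18 for Ntrk3. Cacna2d2, an auxiliary calcium channel subunit and the 1 call among 23 calcium and sodium channel genes, was at 10.8, 12.4 and 13.8 CPM in left sedentary, 16.5, 15.8 and 55.9 in left ELE, 12, 38.2 and 12.4 in right sedentary and 12.4, 24.8 and 12.8 in right ELE mice. Its difference was 1.58 ± 0.72 (SE) with all mice and -0.057 without both, where it was not called. Each of these calls was also lost in at least 1 fit without a single library, TG9.1.4 included in every case.

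Ecel1, a neuronal metalloprotease, was at 0.838, 1.03 and 0.98 CPM in left sedentary, 16.2, 0.79 and 6.03 in left ELE, 2.39, 8.23 and 0.484 in right sedentary and 2.17, 2.9 and 1.45 in right ELE mice. Left ELE TG7.3.2 was highest, right sedentary TG9.1.1 was second, and left ELE TG9.2.2 was as low as the left sedentary mice. Its difference was 3.78 ± 1.27 (SE) and the call was lost at 2.43 without TG9.1.1. Reln, the secreted protein reelin of Cajal-Retzius cells and interneurons, differed by 0.57 ± 0.25 (SE) and by 0.33 without both mice, and its call was lost in 8 of the 12 fits without 1 library. Reln and Npy were the calls among 14 interneuron markers, beside 2.2% of all genes called, and 10 of the markers had a negative difference (median -0.19). The summed level of these markers was 592 CPM in TG9.1.4 and 376 in TG9.1.1, of which Npy alone gave 300.2 and 79. Without Npy, left out after its values were seen, the sums were 292 and 297 CPM, inside the range of 265 to 334 of the other 10 mice. Striatal markers summed to 246 and 157 CPM in the same mice, with 162 and 80.4 from Penk, the enkephalin precursor. Without Penk, left out in the same way, they were 84.1 and 76.6 CPM, beside 57.9 to 75.1 in the other 10. The striatal marker Rgs9 was called with 0.56 ± 0.24 (SE), and was 0.29 and not called without both mice. Its call held in 6 of the 12 fits without 1 library and was lost with no filter on low counts. In bulk RNA more cells of a type and more RNA per cell cannot be told apart. Leaving out both mice, 794 genes were called and 205 of the 414 calls recurred in the same direction.

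**Figure D3:**
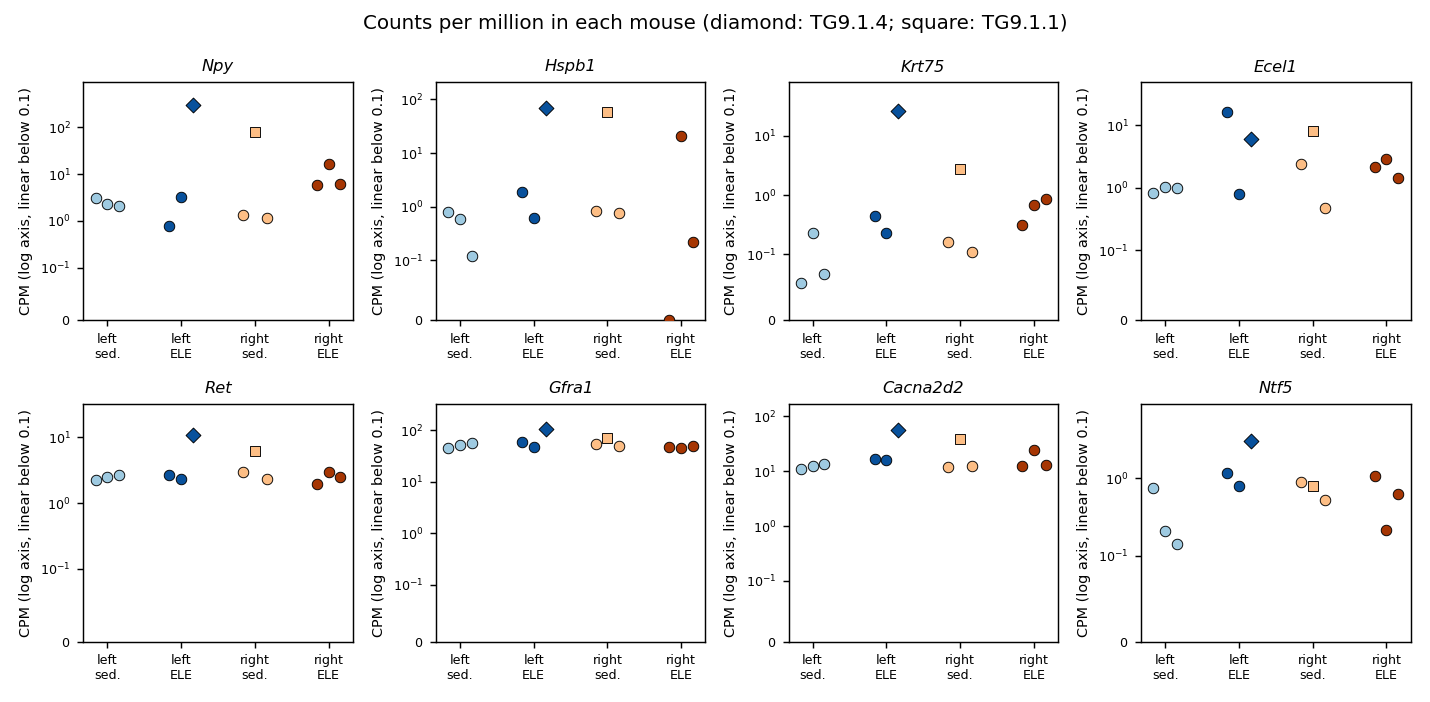
CPM of 8 called genes in each mouse on a log axis that is linear below 0.1 CPM. The diamond (left ELE TG9.1.4) is the highest of the 12 mice in every panel but Ecel1, and the square (right sedentary TG9.1.1) is second in Npy, Hspb1, Krt75, Ecel1, Ret, Gfra1 and Cacna2d2.

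Genes of vessels, meninges, choroid plexus and extracellular matrix had mostly positive differences with few calls. All 12 choroid plexus markers had a positive difference (median 2.03) and none was called, 8 of 9 endothelial and mural markers were positive (median 1.80) with none called, and all 8 meningeal fibroblast markers were positive (median 1.02) with 1 called, against 1.35% of all genes called in that direction and a median of 0.012. The list medians were the same with the 1 member of the choroid plexus list and the 1 of the meningeal list that had no count in right ELE set to a floor of 3 counts over the group. With no filter on low counts, where 3.54% of the genes tested were called in either direction, 6 choroid plexus, 3 endothelial and mural and 2 meningeal markers were called. The summed choroid plexus level was 1341, 1099 and 40.0 CPM in left sedentary, 1066, 63.3 and 38.2 in left ELE, 1230.0, 102 and 40.3 in right sedentary and 23.3, 45.1 and 51.8 in right ELE mice. The 4 mice TG9.1.2, TG7.3.4, TG7.3.2 and TG9.2.3 were above 1000 CPM, with both hemispheres among them, and no right ELE mouse was.

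Ttr, the transthyretin that choroid plexus secretes in bulk, ran from 2.28 to 1167 CPM and differed by 4.10 ± 2.53. Kcnj13, a potassium channel of that epithelium with the smallest p of its list, was at 2.74, 2.15 and 0 CPM in left sedentary, 2.28, 0.193 and 0 in left ELE, 2.23, 0.203 and 0.176 in right sedentary and 0, 0 and 0 in right ELE mice, and had 0 counts in 5 libraries. The summed endothelial and mural level was 20.9, 25.2 and 20.7 CPM in left sedentary, 26, 17.3 and 20.8 in left ELE, 19.5, 16.6 and 56.9 in right sedentary and 17.4, 16.2 and 22.6 in right ELE mice, with 1 right sedentary mouse (TG7.3.3) apart from the rest. The endothelial tight junction gene Cldn5 differed by 2.48 ± 1.32 (SE), by -0.018 without that mouse and by 4.64 without the 4 libraries rich in choroid plexus markers, where it was called. For meningeal markers the sum was 67.4, 76.3 and 63.4 CPM in left sedentary, 92.6, 56.3 and 61.1 in left ELE, 77.1, 58.6 and 51.3 in right sedentary and 72.3, 41.1 and 44.1 in right ELE mice. Slc6a13, a GABA transporter of the meninges, was the called one with 26, 0 and 5 counts in left ELE, 13, 19 and 4 in left sedentary, 6, 1 and 12 in right sedentary and 0 in all right ELE mice, and no fold is given for such counts. That call was lost in 9 of the 12 fits without 1 library and without the 4 libraries rich in choroid plexus markers. By two-sided exact permutation tests the mean log2 CPM of these lists had exercise differences of 0.29 (p = 0.755), 0.54 (p = 0.58) and 0.49 (p = 0.15), and over all 17 library values tested the lowest adjusted p was 0.765. Leaving out 1 library turned the choroid plexus value to -0.71 (without TG7.3.2), -0.70 (without TG9.2.4) or -0.59 (without TG9.2.3), and the endothelial and mural value to -0.045 (without TG7.3.3).

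Fn1, the matrix glycoprotein fibronectin, was at 6.5, 4.09 and 5.07 CPM in left sedentary, 4.18, 4.48 and 11.8 in left ELE, 8.31, 20.8 and 20.1 in right sedentary and 6.19, 6.4 and 6.22 in right ELE mice. Right sedentary mice were above right ELE mice, the left groups overlapped with TG9.1.4 highest, and the difference was 1.77 ± 0.55 (SE). It was 1.11 without TG9.1.4 and 0.91 without both TG9.1.4 and TG9.1.1, and the call held. Among 27 collagens 20 differences were positive (median 0.46) and Col12a1 was the 1 call, beside 2.2% of all genes called. With no filter on low counts 5 collagens were called, beside 3.54% of the genes tested. Col16a1 gave 2.32 ± 1.123 and Col4a1, of basement membranes, 0.65 ± 0.42. Red blood cell genes had a positive difference in all 4 tested, and Hba-a1, alpha globin, was called with 1.47 ± 0.59 (SE) at 1.58, 1.73 and 1.45 CPM in left sedentary, 3.53, 2.09 and 0.949 in left ELE, 3.17, 1.91 and 3.35 in right sedentary and 1.94, 0.965 and 1.27 in right ELE mice. Groups overlapped on both sides, and the call was lost in 6 of the 12 fits without 1 library, with values between 0.95 and 1.83. Microglia markers (median 0.055) held no call, and Cx3cr1, the fractalkine receptor, had the smallest p with 1.58 ± 0.75. Right ELE was the group in which Igfbp7 was lowest and in which no library passed 51.8 CPM of choroid plexus markers, and the part of these markers in the differences was not tested. Without the 4 libraries with over 1000 CPM of choroid plexus markers, Igfbp7 differed by 1.25, Fn1 by 2.38, Nos1 by 0.59 and Lars2 by -1.06, all still called, while the calls of Stk32b (1.47), Zfhx3 (1.16), Unc13c (0.67), Ecel1 (2.79), Grin3a (0.26), Gabre (3.70) and Hba-a1 (0.98) on the left and of Chka (-0.36), Paqr6 (-0.38), Gpr55 (-1.53), Rnf215 (-0.44) and Gm42418 (-0.57) on the right were lost. The calls of Reln (0.76), Ret (2.05), Gfra1 (0.78), Cacna2d2 (1.98), Hspb1 and Slc6a13 were lost in that fit of 8 libraries too, where the unadjusted p was no longer under 0.05, and Ntf5 (3.79), Rgs9 (0.92) and Fcgrt (-1.18) were called. That fit keeps 1 left sedentary library, which is assumed to vary like the other groups.

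**Figure D4:**
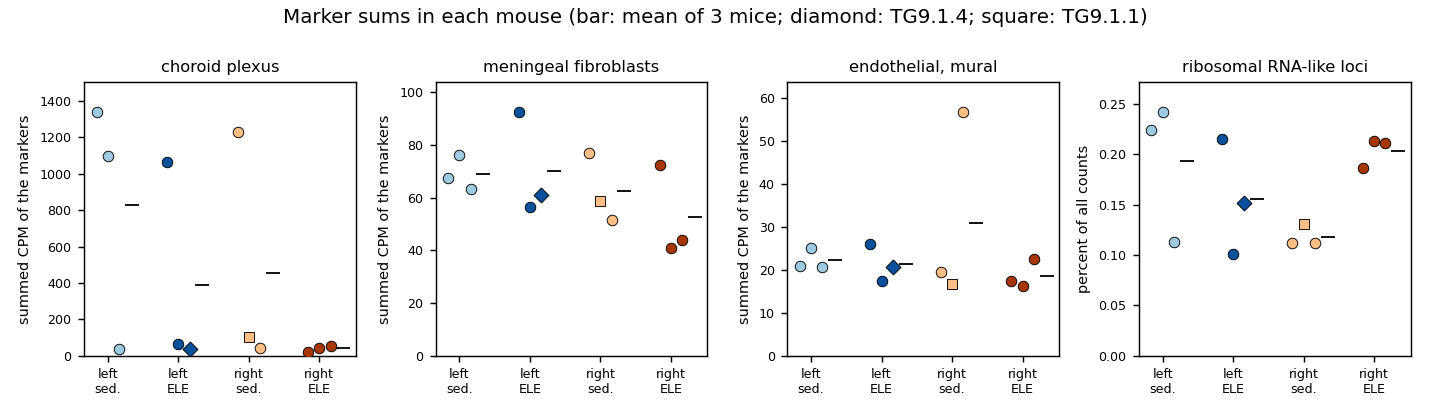
Summed CPM of choroid plexus, meningeal fibroblast, and endothelial and mural markers, and the percent of counts in ribosomal RNA-like loci, in each mouse, with the mean of the 3 mice of each group as a bar. Choroid plexus markers exceed 1000 CPM in 4 mice of 3 groups, and the ribosomal RNA-like share is higher in all 3 right ELE mice than in all right sedentary mice.

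Outside the aminoacyl-tRNA synthetases and ribosomal RNA-like loci, the lists of translation and respiration held no call. None of 82 cytosolic ribosomal proteins was called (median -0.0081, between -0.22 and 0.51), none of 35 translation initiation factors (median 0.042), and none of 15 transcripts of the mitochondrial genome (median 0.018). Of 73 nuclear-encoded respiratory chain subunits 57 had a negative difference, with a median of -0.053 and no call. Ndufa4, of cytochrome c oxidase, had the smallest p there, with -0.30 ± 0.13, and it was -0.41 without TG9.1.4 and TG9.1.1, where it was called. Cholesterol synthesis and uptake held no call in 24 (median 0.0059), and Tm7sf2, a sterol reductase, gave -0.41 ± 0.21. The smallest p among ribosomal proteins belonged to Rpl9 with -0.22 ± 0.14, among initiation factors to Eif2b1 with 0.23 ± 0.13 and among mitochondrial transcripts to mt-Nd5 with 0.52 ± 0.34. The mt-Nd5 difference was 1.37 without the 4 libraries rich in choroid plexus markers, where it was called, and 0.040 without TG9.1.4 and TG9.1.1.

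Markers of excitatory neurons, hippocampal subfields, astrocytes and the oligodendrocyte lineage held no call either. Excitatory neuron markers had a median difference of -0.11, 9 of 10 negative, with Nrgn, the postsynaptic calmodulin-binding protein neurogranin, lowest in p at -0.30 ± 0.14. Medians were -0.011 for dentate granule cells (10 genes), -0.051 for CA1 (7), -0.070 for CA2 and CA3 (12), -0.15 for astrocytes (10) and -0.057 for the oligodendrocyte lineage (12). The members with the smallest p were Glis3 at 0.83 ± 0.42, Gpr161 at 0.17 ± 0.17, Bok at -0.37 ± 0.21, Gja1, the astrocyte gap junction protein, at -0.44 ± 0.26 and Cnp, of myelin, at -0.21 ± 0.19. Glis3 was 0.25 without TG9.1.4 and 0.15 without TG9.1.4 and TG9.1.1, and Bok was -0.57 without TG9.1.4 and -0.64 without both, called each time. Gja1 was -0.24 without TG9.1.4 and -0.064 without both. Markers of neighboring thalamus (median -0.053) and neocortex (median -0.15) had no call, and Fezf2, a neocortical transcription factor, came closest at 0.37 ± 0.15, under the fold limit, with Plekhg1 of the thalamic list at -0.38 ± 0.29.

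**Figure D5:**
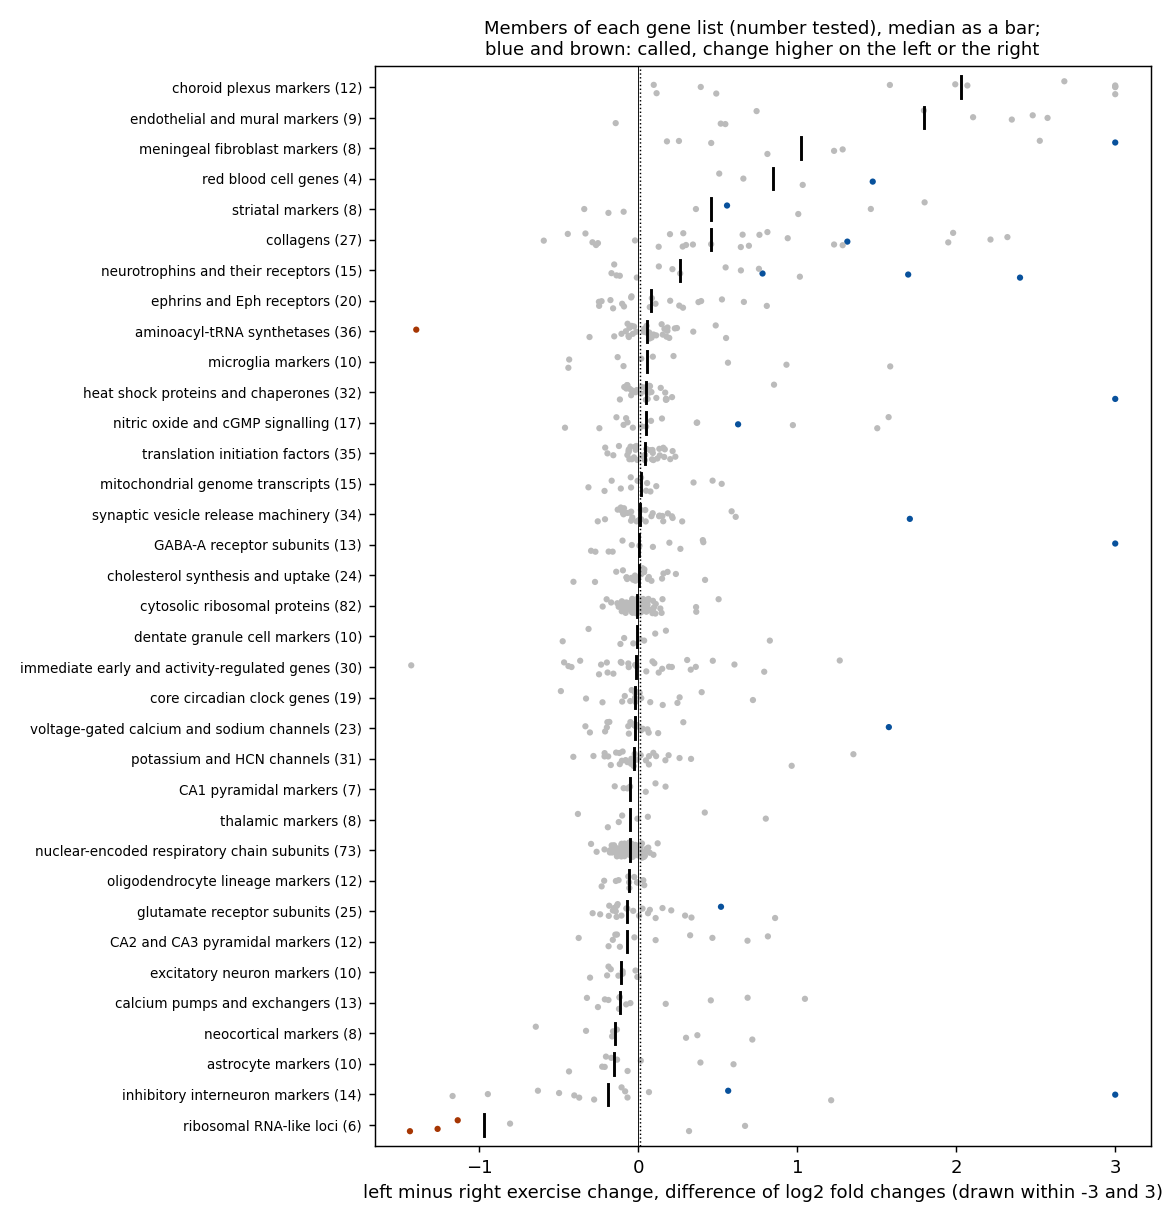
Difference between the left and right exercise change (horizontal axis, difference of log2 fold changes, drawn within -3 and 3) for the tested members of each gene list, with the list's median as a bar and the median of all 18810 genes, 0.012, as a dotted line. Called members are blue (higher on the left) or brown (higher on the right), and the lists with medians above 1 are those of choroid plexus, vessels and meninges.

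Of the 414 calls, 89 held in every one of the 12 fits that left out 1 library, 47 higher on the left and 42 higher on the right, and 51 of these averaged 1 CPM or more. A further fit without TG9.1.4 and TG9.1.1 left 79, and one without the 4 libraries rich in choroid plexus markers left 29, of which 13 were higher on the left and 16 higher on the right. Nos1, Igfbp7, Tshz1, Lrrk2, Fhad1, Spa17 and Fn1 on the left and Lars2, Bub1b, Sgk2, Trpm4, Zfp58, Fcgrt, Tmem114 and Ucp3 on the right were among these 29.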

How the data were processed

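TRAP-seq libraries from 12 male Emx1-NuTRAP hippocampi were compared, 3 each of left ELE, left sedentary, right ELE and right sedentary. Columns of the table carry mouse numbers, and the study's sample sheet gives the group of each mouse. According to the methods, the authors aligned poly(A) directional reads to GRCm38.p6 with STAR 2.7.3a, removed duplicates with Picard 1.87, which also drops repeated fragments of abundant genes, and deposited whole-number, strand-aware counts per gene over exons. The 8 other sample columns of the table were not used. Gene names and types came from GENCODE vM21, which matched 55154 of 55335 gene identifiers, 54587 of them with the same version.

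The interaction of exercise and hemisphere was tested in edgeR 4.0.16 (R 4.3.3) with TMM factors, the filterByExpr filter and quasi-likelihood F tests over 18810 genes, with calls where the difference exceeded 0.39 in size and the unadjusted p was below 0.05, the thresholds of the study's methods. With these thresholds a list of calls is not corrected for the number of genes, so Benjamini-Hochberg values were computed beside it. CPM used TMM-scaled library sizes. Levels of lists per library were tested with two-sided exact permutation of exercise labels within each hemisphere, where 0.005 is the smallest p possible. This permutation assumes no exercise change on either side, not equal changes. An exercise change shared by both sides therefore widens its spread. No statement in the labels places the 3 mice of a group in separate litters or batches, and p-values measure the spread between these mice. Replicates differed beyond sampling noise, with a chi-square of 18.9 to 87.2 per gene over 12 pairs.

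Genes named were the 12 with the smallest p in each direction among called genes averaging 1 CPM or more whose names are not clone or predicted-gene names, up to 4 called members of each list or its member with the smallest p, and Bdnf, Nr4a1, Arntl, Nos1, Lars2 and Gm42418, which earlier results had named. Further list members were named as background and chosen after their values were seen. The members and lists were chosen with earlier results of these data known. On simulated counts (18345 genes), the test called 72% of genes changed 1.5-fold, 84% at 2-fold, 98% at 4-fold and 100% at 8-fold, and reached an adjusted p under 0.05 in 5, 24, 33 and 47 of 50. Those counts were independent between libraries, with changes in left ELE only and only in genes of at least 1 CPM. Of the unchanged genes 4.97% had an unadjusted p under 0.05, beside 490 of 18810 genes in the data. The simulation lacks the shared deviations of libraries seen here, so its rates do not give the power in these data. Alternatives were DESeq2 1.42.0, other size factors, other filters, a mouse-number block and leaving out libraries.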

Additional observations from a re-analysis of the deposited data

How the results depend on the processing

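The count of 414 calls became 1041 (696 higher on the left, 345 on the right) with no filter on low counts and 245 among genes averaging 1 CPM or more, where fewer genes were tested. It ran from 354 to 718 over the 12 fits without 1 library, and exceeded 1.5 times the full count without left ELE TG9.2.2 (718), left ELE TG7.3.2 (630) or right ELE TG9.2.1 (635). Without TG9.1.4 and TG9.1.1, 794 genes were called, 373 higher on the left and 421 on the right, so the split moved from 61.1% to 47.0% on the left. Without the 4 libraries rich in choroid plexus markers the count was 334, with 86 of the 414 calls shared in direction. For these counts the cause was not tested. DESeq2 called 481 genes, 393 of them shared in direction, with an adjusted p under 0.05 in 2. Among named genes the calls of Gfra1 and Cacna2d2 were lost under it, and it gave no p for Krt75, Npy and Hspb1. In edgeR 6 genes reached it with no filter and 2, Lars2 and Gm23935, without left sedentary TG9.2.4.

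Signs turned in few genes. Without TG9.1.4 and TG9.1.1 the difference was -0.63 for Krt75, -3.20 for Npy, -0.057 for Cacna2d2, -1.83 for Hspb1 and -0.24 for Bdnf. Over the fits without 1 library Bdnf ran from -0.014 to 0.45, Arntl from -0.089 to 0.018 and Cldn5 from -0.018 to 3.46, and Arntl was 0.070 without the 4 choroid-rich libraries. Arntl was not called in any fit run. Bdnf was called without the 4 choroid-rich libraries (0.70), and Cldn5 there (4.64), without TG9.1.4 and TG9.1.1 (3.01), with DESeq2, with no filter, and without TG7.3.4, TG9.2.3 or TG9.1.1. Of the other uncalled members named, Glis3, Bok, Gja1, Cx3cr1, Kcnj13, Plekhg1, Fezf2, Nr4a1, Efna1 and Tm7sf2 were called in at least 1 fit without 1 library. With no filter on low counts, where more genes were tested and 3.54% of them were called, the called members were 5 of neurotrophins and their receptors, 2 each of potassium and HCN channels, glutamate receptor subunits, heat shock proteins and aminoacyl-tRNA synthetases, and 1 each of the clock, calcium pump, mitochondrial genome, dentate granule cell, astrocyte and neocortical lists.

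No paired analysis was possible because nothing ties the replicate numbers of the labels to the columns, which carry mouse numbers, and a block on the mouse number was fitted instead. The first part of the mouse number (TG7.3, TG9.1 or TG9.2) is shared by 1 mouse of each of the 4 groups, and no label says what it marks. A block on it called 415 genes, 321 shared with the 414. The calls of Npy (0.89), Krt75 (3.14), Hspb1 (3.19), Ret (1.24), Cacna2d2 (1.1209), Reln (0.56) and Slc6a13 were lost under it. The deviations of the 18 pairs sharing that part correlated at -0.081 to 0.38, median 0.0062, and the highest is TG9.1.4 with TG9.1.1. Other scalings moved the median of all genes by under 0.02. Genes averaging under 1 CPM made up 163 of the calls, and some of these rest on few counts. In 31 of the 414 calls at least 1 group had no count.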
